A study of Rattus norvegicus with 4 samples.

Results

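Collagen chain genes were examined in cultured rat Schwann cells (SCs), the glia of peripheral nerve, after expression of the antisense RNA of the Egr2 promoter (Egr2-AS). Members were the rows of the count table whose gene name has the form Col, a number, the letter a and a number, which gave 27 of 17949 genes. They were grouped by the known families into 10 fibrillar, 4 network, 4 fibril-associated and 9 other chains. The lists of these classes held 11, 9, 10 and 15 chains, and those with no row could not be examined. The cells were primary SCs from sciatic nerve, and strain and age were not given in the sources used here. All cells were kept in medium with 10% fetal bovine serum, 4 μM forskolin, which raises cyclic AMP, and 5 ng/ml heregulin-β1, a ligand of the ErbB receptors. A lentivirus was applied for 48 h. GFP was carried by the control virus (Lenti-GFP, n = 2) and Egr2-AS by the other (Lenti-AS, n = 2), whose vector has a red fluorescent reporter in place of GFP, so reporter and Egr2-AS cannot be told apart. The labels call the samples of a group biological replicates and do not say whether they came from separate animals, so the p-values measure the spread between these samples, which may be technical.

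Collagens are secreted proteins in which alpha chains wind around each other into a helix. Fibrillar collagens (types I, II, III, V, XI, XXIV and XXVII) assemble into the fibrils of connective tissue, and fibril-associated collagens bind to their surface. Network collagens such as type IV form sheets, among them the basal lamina that SCs lay down around themselves and that myelination depends on. SCs in culture are known to make collagens IV and V, and the endoneurium of nerve holds collagens I and III.

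Total counts were between 74024323 and 96185890 per sample, so 1 count was worth 0.0106 to 0.0133 CPM (counts relative to library size, scaled by the TMM method of edgeR). Lenti-AS 2 held 255260 counts of 7 globin genes, against 460 to 944 in the other samples. Of 10251 genes over 1 CPM on average, 188 differed more than 2-fold between the Lenti-AS samples and 9 between the Lenti-GFP samples. Expression of Egr2-AS was not analysed here. Egr2 had 49.2 and 42.1 CPM in Lenti-GFP and 61.2 and 54.0 CPM in Lenti-AS. Whether antisense reads are among these is not known, because strand use is not given. The Schwann cell markers Sox10, S100b, Erbb3, Ngfr, Cdh19, Gfra3 and L1cam were all counted, and S100b had 2027 and 2052 CPM in Lenti-GFP and 2358 and 2206 CPM in Lenti-AS. Gfra3 among them was called lower (log2 fold change -1.38).

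Of the 27 chains, 24 had at least 10 counts in at least 2 samples and were tested with edgeR's quasi-likelihood test. Calls required an adjusted p (Benjamini-Hochberg over all 12446 genes tested) under 0.05 together with a change of 1.3-fold or more, and were made for 1.98% of all genes. One chain, Col5a2, was called lower in Lenti-AS, beside 0.667% of all genes tested. No chain was called higher (0), beside 1.31% of all genes, and no chain with a higher fitted level had an unadjusted p under 0.05 (0). An unadjusted p under 0.05 with a lower level was found for 6 chains, Col9a1 and Col26a1 among them, beside 9.37% of all genes. Among chains with a mean of at least 1000 counts it was found for 4 of 15, beside 13.4% of all genes with that mean. DESeq2, the tool of the study, gave an adjusted p for 19 of the 24 chains and called 3 lower (Col5a2, Col3a1 and Col9a2) and 0 higher. Of the 10033 genes to which it gave an adjusted p, it called 1.39% lower and 4.86% higher. The chains Col9a1, Col26a1 and Col6a4 passed the count limit only because of Lenti-GFP, so their lower level in Lenti-AS follows in part from the limit.

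**Figure D1:**
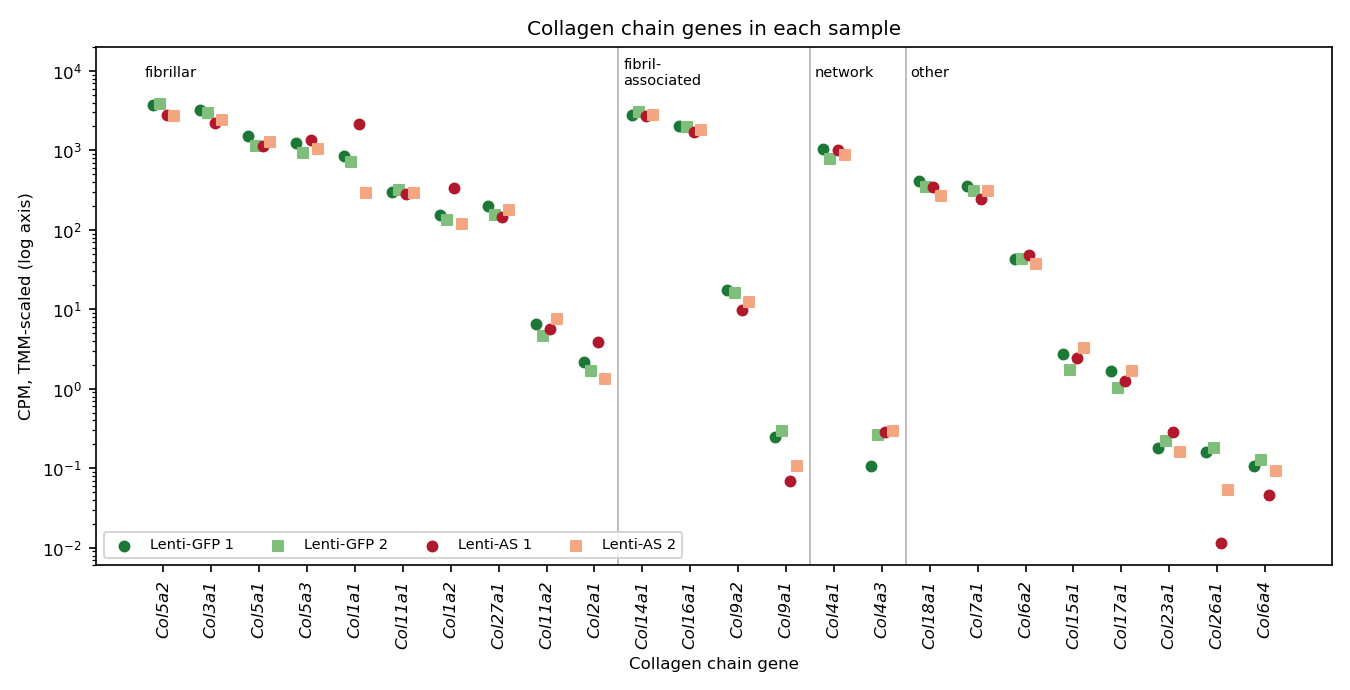
Level of the 24 tested collagen chains in each sample, as TMM-scaled CPM on a log axis, ordered by class and by mean level. Circles are replicate 1 and squares replicate 2, in dark and light green for Lenti-GFP and in red and orange for Lenti-AS. Both Lenti-AS points of Col5a2 and Col3a1 lie below both Lenti-GFP points, and the Lenti-AS points of Col1a1 lie on either side of them, at 2131 and 290.1 CPM.

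Because the reads on a gene grow with the length of its transcript, and no transcript lengths of the rn6 annotation were used here, levels were compared between samples and not between chains. Of the 15 chains with a mean of at least 1000 counts, both Lenti-AS samples lay below both Lenti-GFP samples for 8, and for 0 they lay above. Among the 7557 genes with that mean count these shares were 34.8% and 26.3%. The 8 chains were Col5a2, Col3a1, Col11a1, Col14a1, Col16a1, Col9a2, Col18a1 and Col7a1. The groups overlapped for the other 7, which were Col1a1, Col1a2, Col5a1, Col5a3, Col27a1, Col4a1 and Col6a2. A lower fitted level was found for 11 of the 15, beside 55.3% of those genes. The median log2 fold change of the 15 was -0.13, beside -0.02 for those 7557 genes. Over all 24 tested chains 14 had a lower fitted level, beside 48.7% of all genes, and the median was -0.10, beside 0.01 for all genes. The groups did not overlap for 11 lower chains and 1 higher chain, beside 27.2% and 27.7% of all genes, or 54.9% in either direction. Col9a1, Col26a1 and Col6a4 are 3 of the 11, and having passed the count limit through Lenti-GFP they could hardly be other than lower, so the counts over the 24 chains and their median are descriptions and no support for a direction.

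The promoters of Col5a2 and Col1a2 are shown because the first chain was called lower in Lenti-AS. The second belongs to the pair that, of the chains with at least 1000 counts, differed most between the Lenti-AS samples. Both are RefSeq sequences of the GRCr8 assembly, which is not the rn6 build of the counts. They begin 250 bases before the annotated start of the gene. Capitals mark TTTAAA or TATAAA, the letters of a TATA-like box, and CCAAT on either strand, written ATTGG where it lies on the other one.
Col5a2, chr9:55090152-55090401, minus strand: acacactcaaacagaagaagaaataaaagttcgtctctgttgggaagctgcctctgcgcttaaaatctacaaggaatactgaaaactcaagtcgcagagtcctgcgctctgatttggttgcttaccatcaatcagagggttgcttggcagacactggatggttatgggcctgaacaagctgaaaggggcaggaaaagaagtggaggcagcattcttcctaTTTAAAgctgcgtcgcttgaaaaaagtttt
Col1a2, chr4:33518307-33518416, plus strand: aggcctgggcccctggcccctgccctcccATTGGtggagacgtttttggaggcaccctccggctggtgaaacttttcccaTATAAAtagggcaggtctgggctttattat

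In Col5a2, TTTAAA lies 30 bases before the annotated start, and in Col1a2, TATAAA lies 170 bases and ATTGG 221 bases before it. The RefSeq table held promoters of 300 bases for 22 of the 27 chains, Col1a1, Col3a1, Col2a1, Col14a1 and Col6a2 being the others. Searched on both strands, TATAAA was in 3 of the 22 (14.2% of all 33469 promoters), TTTAAA in 4 (13.6%) and CCAAT in 6 (37.5%). The letters GCGNGGGCG, as bound by EGR factors, were in 4, those of Col11a2, Col5a3, Col4a1 and Col26a1 (4.98% of all promoters). TGANTCA, as bound by AP-1, was in 0 of the 22 (7.33%), and GCCATNTT, as bound by YY1, in 1, that of Col9a2 (6.96%). Such matches are descriptions of these windows and not sites of binding.

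The fibrillar chains gave the only call. Col5a2 encodes a chain of collagen V, which lies inside fibrils of collagen I and limits their width. It had 3740 and 3782 CPM in Lenti-GFP and 2784 and 2740 CPM in Lenti-AS. Lenti-AS was lower in both samples. The groups were 956 CPM apart at their closest, while the samples of a group differed by 41.6 CPM (Lenti-GFP) and 44.3 CPM (Lenti-AS). The mean fell from 3761 ± 29.4 to 2762 ± 31.3 CPM (SD, n = 2 each; log2 fold change -0.45, SE 0.05, adjusted p = 0.0252 from edgeR), and the level in Lenti-GFP was 1.36-fold that in Lenti-AS. With a replicate block the adjusted p of Col5a2 was 0.0592. Without Lenti-GFP 1 or Lenti-GFP 2 it was 0.179 and 0.264, and the log2 fold change was then -0.45 and -0.44, while the adjusted p was 3.67e-05 without Lenti-AS 1 and 5.16e-05 without Lenti-AS 2.

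Col3a1, the single chain of collagen III, lay next to Col5a2 on chromosome 9 in the GRCr8 annotation, with 0 genes between them. It had 3261 and 2955 CPM in Lenti-GFP and 2198 and 2400 CPM in Lenti-AS. The groups were 554 CPM apart, Lenti-AS being lower, and the samples within a group differed by 306 and 202 CPM. The log2 fold change was -0.43 (SE 0.08), close to that of Col5a2, but the adjusted p from edgeR was 0.0520, so Col3a1 was not called. Its adjusted p was between 4.86e-06 and 0.0945 over the other tests, scalings and filters and the replicate block, and it was called by DESeq2, limma-voom, the likelihood ratio test, RLE factors and the fit with no low-count filter. Col3a1 had 0.872 and 0.781 reads per Col5a2 read in Lenti-GFP and 0.79 and 0.876 in Lenti-AS, and the groups overlapped in this ratio.

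Col5a1 encodes the chain that joins with the Col5a2 chain in the common form of collagen V. It had 1509 and 1152 CPM in Lenti-GFP and 1139 and 1293 CPM in Lenti-AS, so the groups overlapped (log2 fold change -0.13, SE 0.13, adjusted p = 0.603 from edgeR), and the value was 0.08 without Lenti-GFP 1. The reads of Col5a1 per read of Col5a2 were 0.403 and 0.305 in Lenti-GFP and 0.409 and 0.472 in Lenti-AS. This ratio does not depend on library scaling, and it was higher in both Lenti-AS samples (log2 difference 0.33, two-sided exact permutation test, p = 0.333, the smallest that 2 against 2 samples allow). The difference was 0.12 without Lenti-GFP 2 and 0.53 without Lenti-GFP 1. Col5a3, the third chain of collagen V, had 1243 and 937 CPM in Lenti-GFP and 1364 and 1048 CPM in Lenti-AS, again with overlap.

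Collagen I, the main collagen of most fibrils, is built from Col1a1 and Col1a2 chains, and both were described after their values had been seen. Col1a1 had 841 and 721 CPM in Lenti-GFP, against 2131 CPM for Lenti-AS 1 and 290.1 CPM for Lenti-AS 2. The Lenti-AS samples lay on either side of the controls and differed 7.35-fold, against 1.17-fold between the Lenti-GFP samples. Col1a2 had 155 and 133 CPM in Lenti-GFP, against 340 CPM for Lenti-AS 1 and 120 CPM for Lenti-AS 2, in the same order as Col1a1. The log2 fold changes were 0.63 (SE 0.78) for Col1a1 and 0.67 (SE 0.44) for Col1a2, and neither was called (adjusted p = 0.672 and 0.412 from edgeR). With limma-voom the value of Col1a1 was 0.02. The sign rested on 1 library. Without Lenti-AS 1 the log2 fold change of Col1a1 was -1.43 and that of Col1a2 was -0.27, and without Lenti-AS 2 they were 1.45 and 1.24. Col1a1 was called in both of these fits, in opposite directions, and Col1a2 only in the second. The Col1a1 reads per Col1a2 read were 5.42 and 5.40 in Lenti-GFP, against 6.28 for Lenti-AS 1 and 2.43 for Lenti-AS 2, so the 2 chains did not move in step.

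The counts of Col1a2 are uncertain, because the table holds a copy row of this gene. Whether reads are shared between these rows is not known. The copy row had 15515 and 14012 counts in Lenti-GFP, against 31645 for Lenti-AS 1 and 9118 for Lenti-AS 2, close to the 14468, 12650, 29766 and 8989 counts of Col1a2. With both rows summed, the log2 fold change of Col1a2 was 0.64 (adjusted p = 0.433 from edgeR). Among Schwann cell markers, Sox10 had 163 CPM in Lenti-AS 1 against 61.2 to 77.1 CPM in the other samples. Other markers of that list were close in Lenti-AS 1 and Lenti-AS 2, with 550.0 and 562 CPM of Erbb3, 67.4 and 67.5 CPM of L1cam and 19.2 and 18.9 CPM of Gfra3. The part of Sox10 in the level of collagen I was not tested.

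**Figure D2:**
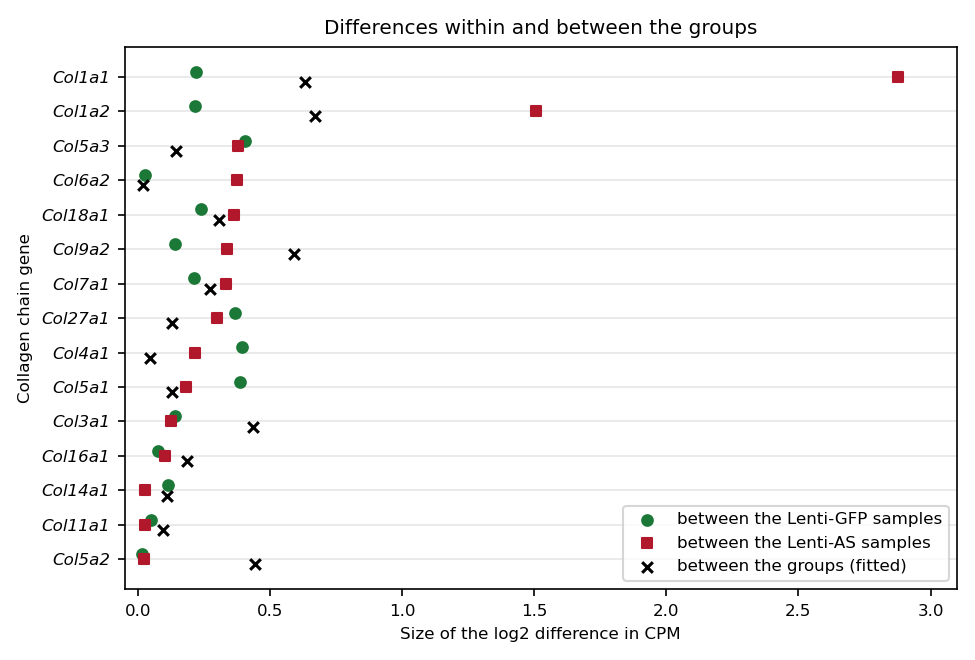
Size of the log2 difference in CPM between the 2 Lenti-GFP samples (green circles), between the 2 Lenti-AS samples (red squares) and between the groups as fitted (crosses), for the 15 chains with a mean of at least 1000 counts. Col5a2 has the smallest difference within Lenti-GFP and one of 0.45 between the groups, while the difference within Lenti-AS exceeds that between the groups for Col1a1, Col1a2, Col5a3, Col6a2, Col18a1, Col7a1, Col27a1, Col4a1 and Col5a1.

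The remaining fibrillar chains were not called. Col11a1, a chain of collagen XI, had 304 and 314 CPM in Lenti-GFP and 286 and 292 CPM in Lenti-AS, a small difference in 1 direction (log2 fold change -0.10, SE 0.05, adjusted p = 0.334 from edgeR). Col27a1, Col11a2 and Col2a1 had log2 fold changes of -0.13, 0.23 and 0.45, and their groups overlapped. The median of the 10 fibrillar chains was 0.02, with 5 lower and 5 higher. It ranged from -0.176 without Lenti-AS 1 to 0.224 without Lenti-GFP 1, so its sign changed with the sample left out.

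All 4 fibril-associated chains had both Lenti-AS samples below both Lenti-GFP samples, and by edgeR none was called (0), while 3 had an unadjusted p under 0.05 and DESeq2 called 1, Col9a2. Over all genes the shares of such lower levels were 27.2% without overlap and 9.37% with such a p. Col9a1, counted in both, passed the count limit through Lenti-GFP alone. Col14a1, which binds to the surface of collagen I fibrils, had 2823 and 3057 CPM in Lenti-GFP and 2697 and 2750 CPM in Lenti-AS. The gap between the groups, 73.1 CPM, was smaller than the 234 CPM between the Lenti-GFP samples (log2 fold change -0.11, SE 0.06, adjusted p = 0.347 from edgeR). Col16a1 had 2048 and 1943 CPM in Lenti-GFP and 1690 and 1815 CPM in Lenti-AS. Its gap of 128 CPM was close to the differences within the groups, 104 and 125 CPM (log2 fold change -0.19, SE 0.06, unadjusted p = 0.0246 and adjusted p = 0.169 from edgeR).

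Collagen IX is a partner of collagen II in cartilage fibrils. Col9a2 had 17.7 and 16.0 CPM in Lenti-GFP and 9.89 and 12.5 CPM in Lenti-AS. The level in Lenti-GFP was 1.51-fold that in Lenti-AS (log2 fold change -0.59, SE 0.13, adjusted p = 0.0875 from edgeR). DESeq2 gave an adjusted p = 0.00381 for it. Col9a1 had 23 and 28 counts in Lenti-GFP and 6 and 8 counts in Lenti-AS (log2 fold change -1.63, SE 0.47, adjusted p = 0.132 from edgeR). Both chains were lower in Lenti-AS in every sample, and Col9a1 is one of the chains that passed the count limit through Lenti-GFP alone.

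**Figure D3:**
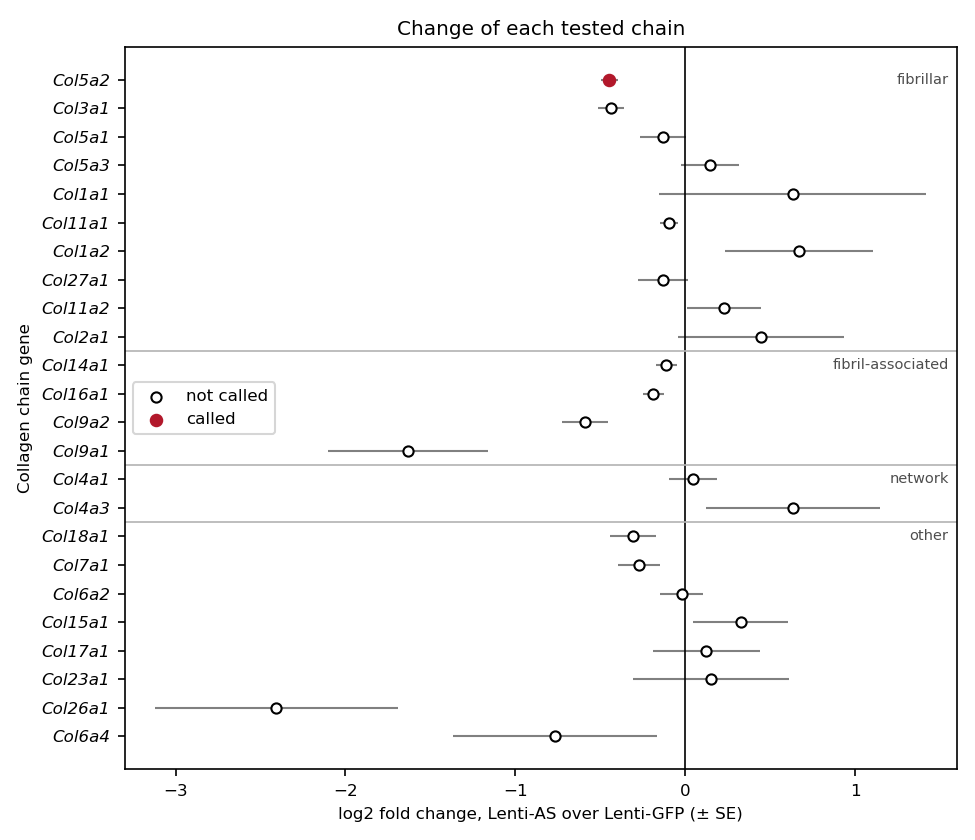
Fitted log2 fold change of Lenti-AS over Lenti-GFP with its SE for the 24 tested chains, by class, with the called chain in red. Col5a2 and Col3a1 lie at -0.45 and -0.43 with short error bars, and Col1a1 has the largest SE (0.78). The values of Col26a1, Col9a1 and Col6a4 rest on 28 counts or fewer in any sample.

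The network chains that had a row differed by less than the spread between replicates or were near the limit of counting. Col4a1, a chain of the basal lamina collagen IV, had 1038 and 791 CPM in Lenti-GFP and 1016 and 873 CPM in Lenti-AS. The groups overlapped, with a log2 fold change of 0.05 (SE 0.14, adjusted p = 0.872 from edgeR), which was -0.14 without Lenti-GFP 2 and -0.07 without Lenti-AS 1. Col4a3, a collagen IV chain of specialised basement membranes, had 10 and 25 counts in Lenti-GFP and 25 and 22 counts in Lenti-AS (log2 fold change 0.63, SE 0.51, adjusted p = 0.505 from edgeR). The value was 0.13 without Lenti-GFP 1 and 1.42 without Lenti-GFP 2. Its Lenti-AS samples lay above the controls by 0.0215 CPM, which is about the worth of 2 counts. Col4a4 and Col8a1 were not tested, with 7 and 8 counts in Lenti-GFP and 2 and 2 in Lenti-AS for Col4a4, and 6 and 9 against 13 and 3 for Col8a1.

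Among the other collagens, Col18a1 and Col7a1 had the most reads. Col18a1 encodes a basement membrane collagen that carries heparan sulfate and releases endostatin. It had 412 and 349 CPM in Lenti-GFP and 346 and 269 CPM in Lenti-AS. The groups were 2.99 CPM apart, less than the 62.7 and 77.2 CPM within them (log2 fold change -0.31, SE 0.14, adjusted p = 0.255 from edgeR). Col7a1, the chain of the anchoring fibrils of epithelium, had 362 and 312 CPM in Lenti-GFP and 247 and 311 CPM in Lenti-AS, with 0.775 CPM between the groups (log2 fold change -0.27, SE 0.13, adjusted p = 0.269 from edgeR). Col18a1 was called lower without Lenti-AS 1 and Col7a1 without Lenti-AS 2, so these differences changed with the library left out.

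Col26a1 had 15 and 17 counts in Lenti-GFP and 1 and 4 counts in Lenti-AS (unadjusted p = 0.0155, adjusted p = 0.140 from edgeR). Its fitted value in the plot of fold changes rests on a single count in Lenti-AS 1, depends on the prior count of the fit and is no estimate or bound of a fold. Col6a2, a chain of the beaded filament collagen VI, had 42.8 and 43.6 CPM in Lenti-GFP and 48.1 and 37.1 CPM in Lenti-AS, with overlap and a log2 fold change of -0.02. Col15a1, Col17a1, Col23a1 and Col6a4 were between 0.0456 and 3.23 CPM in all samples and none had an unadjusted p under 0.05 (0). Col13a1 was not tested and had between 4 and 8 counts in every sample.

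Summed over the 27 chains, 18008 and 16672 CPM were counted in Lenti-GFP and 16455 and 14443 CPM in Lenti-AS. Without Col1a1 and Col1a2 the sums were 17013 and 15818 CPM in Lenti-GFP and 13984 and 14034 CPM in Lenti-AS. Both Lenti-AS sums were lower in each case. Without collagen I, set apart after its values had been seen, they lay closer together. For all 27 chains the order depended on the scaling. As shares of all counts, without TMM factors, they took 1.787% and 1.643% in Lenti-GFP and 1.656% and 1.467% in Lenti-AS, with overlap. Most reads came from fibrillar chains, with 10156 to 11260 CPM in Lenti-GFP and 8369 to 10397 CPM in Lenti-AS, where the groups overlapped. Fibril-associated chains took 4889 and 5017 CPM in Lenti-GFP and 4397 and 4578 CPM in Lenti-AS. These sums weigh long transcripts more and were not tested.

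**Figure D4:**
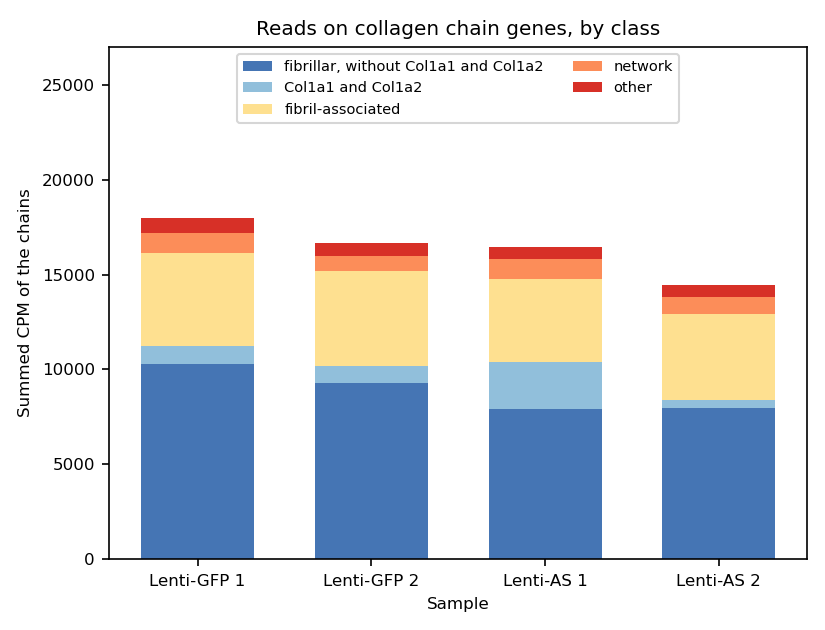
Summed TMM-scaled CPM of the 27 collagen chains in each sample, stacked by class, with Col1a1 and Col1a2 shown apart from the other fibrillar chains. The part of Col1a1 and Col1a2 is 996 and 854 CPM in Lenti-GFP, against 2471 CPM for Lenti-AS 1 and 410 CPM for Lenti-AS 2, and the other fibrillar chains are lower in both Lenti-AS samples.

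Genes that act on collagen were taken from lists. Enzymes in the endoplasmic reticulum hydroxylate proline and lysine of new chains, proteases and lysyl oxidases then trim and cross-link the secreted protein, and integrins, discoidin receptors and adhesion GPCRs bind it. Of 46 tested genes in 4 such lists, 2 were called lower, Plod2 and Adamts2, and 0 higher, beside 0.667% and 1.31% of all genes. Neither was called with the replicate block or without either Lenti-GFP sample. By DESeq2 the same 2 were called lower and Pcolce and Adgrg1 higher, beside 1.39% and 4.86% of the genes with an adjusted p from DESeq2. It gave none for 11 of the 46. An unadjusted p under 0.05 was found for 10 lower and 6 higher genes, beside 9.37% and 12.5% of all genes.

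Chain folding and hydroxylation genes had 1 called lower of 16 tested (0.667% of all genes), Plod2, a lysyl hydroxylase. Plod2 had 203 and 215 CPM in Lenti-GFP and 154 and 149 CPM in Lenti-AS (log2 fold change -0.46, SE 0.06, adjusted p = 0.0270 from edgeR). Both Lenti-AS samples lay 48.9 CPM below the controls. Of the 16 genes 13 had a lower fitted level (48.7% of all genes) and the median log2 fold change was -0.16, beside 0.01 over all genes. Those with a lower level and an unadjusted p under 0.05 were 7, beside 9.37% of all genes. These 7 had means of at least 1000 counts. Among all genes with such a mean, 13.4% had a lower level with such a p and 55.3% a lower fitted level. Besides Plod2 they were Plod1, Plod3, P4ha1, P4ha2, P4hb and Ppib, named like Serpinh1 after their values had been seen. Serpinh1, the collagen chaperone HSP47, had 1076 and 1119 CPM in Lenti-GFP and 1153 and 940 CPM in Lenti-AS, with overlap.

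Procollagen cleavage and cross-linking genes had 1 called lower of 13 (0.667% of all genes), Adamts2, which removes the amino-terminal propeptide of fibrillar procollagens. It had 16.8 and 16.3 CPM in Lenti-GFP and 10.8 and 11.1 CPM in Lenti-AS (log2 fold change -0.60, SE 0.08, adjusted p = 0.0368 from edgeR). Of the 13 genes 4 had a lower fitted level (48.7% of all genes) and 9 a higher one. Of the 9, 3 had an unadjusted p under 0.05 (12.5% of all genes), and the median was 0.16. Cross-linking and hydroxylation lists thus had medians of opposite sign, a difference that was not tested.

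Collagen receptors had 0 called of 9 tested by edgeR, with 1 lower and 1 higher at an unadjusted p under 0.05 (9.37% and 12.5% of all genes). By DESeq2 1 was called higher (4.86% of the genes with an adjusted p from DESeq2). That was Adgrg1, an adhesion GPCR that binds collagen III, with 135 and 119 CPM in Lenti-GFP and 160 and 172 CPM in Lenti-AS (log2 fold change 0.39, SE 0.08, adjusted p = 0.0710 from edgeR). Collagen-binding matrix proteins had 0 called of 8 by edgeR and 0 by DESeq2, with 1 lower and 2 higher at an unadjusted p under 0.05 (9.37% and 12.5% of all genes). The smallest p among them was that of Ogn, a small proteoglycan, at 2.62 and 2.63 CPM in Lenti-GFP and 3.90 and 3.94 CPM in Lenti-AS (log2 fold change 0.58, SE 0.15, adjusted p = 0.117 from edgeR). The medians of these lists were 0.13 and 0.09.

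**Figure D5:**
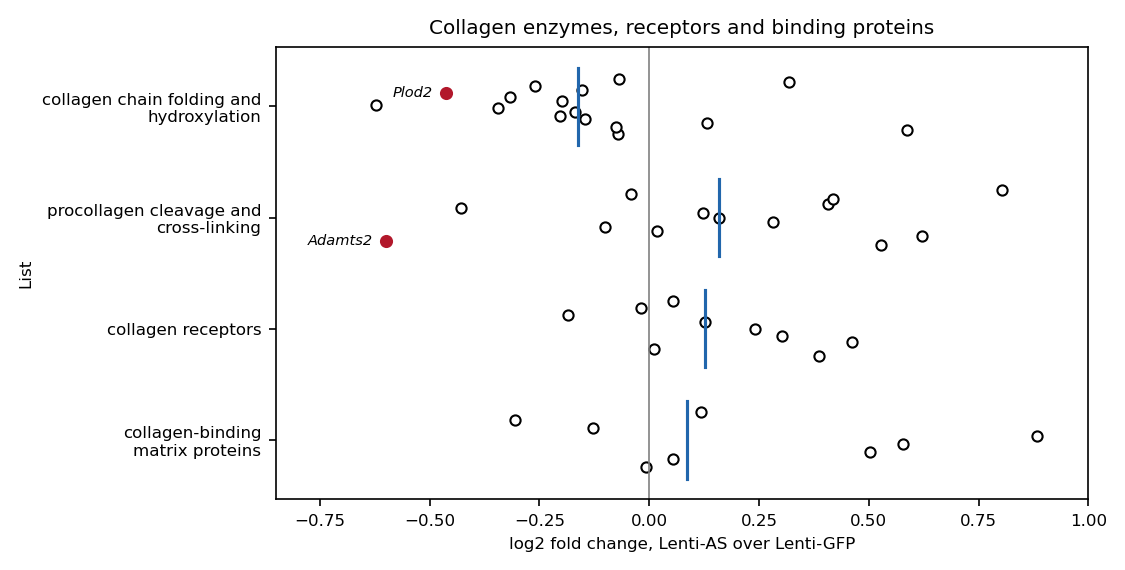
Fitted log2 fold change of Lenti-AS over Lenti-GFP for each tested gene of 4 lists of genes that act on or bind collagen, with called genes in red and named, and the median of each list as a blue line. The medians are -0.16, 0.16, 0.13 and 0.09 from top to bottom.

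Fibroblasts and vessel cells also make collagens, and fewer cells of a type cannot be told apart from less RNA per cell in such samples. Of 11 fibroblast markers counted, Dcn, Lum, Dpt, Thy1, Tcf21 and Sfrp2 had under 10 counts in every sample and 0 in at least 1, and the summed level of the list was 20.2 and 20.3 CPM in Lenti-GFP and 22.2 and 21.4 CPM in Lenti-AS. The summed endothelial list was 26.5 and 26.1 CPM in Lenti-GFP and 20.8 and 19.6 CPM in Lenti-AS, with Cdh5, Emcn and Cldn5 under 10 counts in every sample. The pericyte and smooth muscle list was 29.5 and 29.6 CPM against 28.5 and 24.9 CPM, with Kcnj8 under 10 counts and at 0 in 1 sample or more. The perineurial list was 197 and 192 CPM against 215 and 238 CPM, with Msln under 10 counts, and the macrophage list 3.55 and 3.63 CPM against 4.21 and 4.43 CPM, with Adgre1, Aif1, C1qa and C1qb under 10 counts. The endothelial and pericyte sums were lower in Lenti-AS and the others higher. Of the pericyte list, Tagln had 16.8 and 17.1 CPM in Lenti-GFP and 16.1 and 11.2 CPM in Lenti-AS. Of its 6 tested genes 3 had a lower fitted level and 3 a higher one. Single genes carried some sums, with Tek at 19.8 and 20.2 CPM in Lenti-GFP and 15.3 and 14.7 CPM in Lenti-AS of the endothelial list, and Itgb4 at 165 and 160.45 CPM against 183 and 203 CPM of the perineurial list, whose Cldn1 and Tenm2 were lower in Lenti-AS. Their part in the collagen levels was not tested.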

How the data were processed

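RNA-seq was analysed in 4 samples of cultured rat SCs, 2 Lenti-GFP and 2 Lenti-AS, grouped by their labels. Reads of 50 bp, sequenced from both ends, were aligned by the authors to rn6 with hisat2 by the paper's methods, while the submitters' processing notes name GSNAP. The authors counted reads on RefSeq exons with featureCounts and deposited the whole-number counts per gene without normalization. Versions, strand use and the treatment of multi-mapping reads are not given in the sources used here. In a table of 17949 genes, 617 are copy rows of another gene, and 1 row that repeats the header was dropped.

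Genes that reached 10 counts in 2 or more samples were fitted with edgeR 4.0.16 in R 4.3.3 (TMM factors, glmQLFit, glmQLFTest, no replicate term), with Benjamini-Hochberg adjustment over all 12446 genes. The adjusted p and fold limits are those of the study. CPM use TMM-scaled library sizes. Each SE is the size of the log2 fold change over the square root of its F statistic. Alternatives were DESeq2 1.42.0, limma-voom (limma 3.58.1), the likelihood ratio test, the newer quasi-likelihood fit, RLE, upper-quartile and no scaling factors, other count and fold limits, a replicate block, a fit without globin genes and leaving out each sample.

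The members, classes and lists were chosen with earlier results of these data known. Chains given in full were those called, those with an unadjusted p under 0.05, the 2 with the most counts in each class and their partners in a trimer. Of the lists, called genes were named, or else the gene with the smallest p. Effects of length and GC content were not examined, and no protein sequences were used. Some Schwann cell markers are not reported here.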

Additional observations from a re-analysis of the deposited data

How the results depend on the processing

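The adjusted p of Col5a2 passed in every scaling, filter and test run except the replicate block and the fits without a Lenti-GFP sample, and a 1.5-fold limit also ended its call. Chains called lower were 1 in edgeR, 3 with DESeq2, 5 with the likelihood ratio test, 2 with RLE factors, limma-voom or no low-count filter, 0 with a 1.5-fold limit and 0 to 5 when 1 sample was left out. Chains called higher were 0, and up to 3 (Col1a1, Col1a2 and Col2a1) without Lenti-AS 2. With 1 sample in a group, that sample is assumed to vary like the other group, and the spread is then taken from 2 samples of 1 group. Of all genes, 163 were called higher and 83 lower, against 488 and 139 with DESeq2, 374 and 147 with the likelihood ratio test, 81 and 43 at 1.5-fold, and 0 to 1266 and 1 to 271 when 1 sample was left out. The share of calls that were higher was 66.3%, against 77.8% with DESeq2 and 17.6% with the replicate block, where 3 were called higher and 14 lower. Pathway genes called lower went from 2 to 1 at 1.5-fold and to 0 to 4 with 1 sample left out, and those called higher from 0 to 2 with DESeq2 and to 0 to 5 with 1 sample left out. With at least 1 CPM required, class medians went from -0.389 to -0.184 (fibril-associated), 0.34 to 0.0505 (network) and -0.146 to -0.0155 (other), with fewer chains tested. The chains lost were Col9a1 (fibril-associated), Col4a3 (network) and Col23a1, Col26a1 and Col6a4 (other). Of these, Col9a1, Col26a1 and Col6a4 had passed the count limit only through Lenti-GFP. The lower medians of their classes without the 1 CPM limit therefore follow in part from the count limit. With 1 sample left out, medians ran from -0.178 to -0.00369 over all chains, -0.176 to 0.224 for fibrillar, 0.197 to 0.642 for network and -0.278 to -0.0935 for other chains. Single values then ran from -1.43 to 1.45 for Col1a1, -0.27 to 1.24 for Col1a2, -0.135 to 0.26 for Col4a1, -0.31 to 0.0809 for Col5a1 and -1.16 to 0.213 for log2 Col1a1 over Col1a2.

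Samples with the same replicate number did not deviate together (correlation -0.012), and the labels tie the numbers to no shared culture or day. The replicate block left 0 chains and 0 pathway genes called, and 3 higher and 14 lower of all genes. Depth limits Col4a3, Col4a4, Col6a4, Col8a1, Col9a1, Col13a1, Col23a1 and Col26a1, which had under 30 counts in every sample.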

Other observations

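Genes with the order of Col1a1 were looked for after its values had been seen. Among genes over 1 CPM on average, 10 were above both Lenti-GFP samples by over 0.8 in Lenti-AS 1 and below both by over 0.5 in Lenti-AS 2, on the scale of log2(CPM + 0.5). Besides Col1a1 these were Spsb4, Igfbp5, Prrc2a, Ntng2, Pmepa1, Prr13, Dtx3, Wipf2 and Cdc42bpg. Igfbp5, which encodes a secreted binding protein of insulin-like growth factors, had 51.2 and 45.6 CPM in Lenti-GFP, 150.3 CPM in Lenti-AS 1 and 26.4 CPM in Lenti-AS 2. Pmepa1, which encodes an inhibitor of TGF-β signaling, had 4.91 and 4.75 CPM in Lenti-GFP, 9.32 CPM in Lenti-AS 1 and 2.93 CPM in Lenti-AS 2. The genes were chosen for this order, which is therefore a description and was not tested.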
